A study of Mus musculus with 13 samples.

Results

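The collagen genes are the rows of the count table whose symbol is Col, a number, the letter a and a number, with no suffix: 44 of 24394 gene symbols. They fall into fibrillar genes (11), the Col4 genes of basement membranes (6), Col7a1 and Col17a1 of epithelial anchoring structures (2), beaded filament Col6 genes (6), fibril-associated genes, or FACIT (9), network-forming genes (3), multiplexins (2), transmembrane collagens (3) and Col26a1 and Col28a1 (2). Their RNA was compared in the direct programming of fibroblasts to thymic epithelial cells (TEC) by Foxn1, the transcription factor that TEC need to form. The 6 groups were mouse embryonic fibroblasts (MEF) from E13.5 embryos without Cre (n = 2), induced TEC (iTEC) taken on day 2 (n = 2) or day 10 (n = 3), the Epcam-negative (n = 2) and the Epcam-positive (n = 2) fraction of iTEC sorted on day 12, and TEC of the E15.5 fetal thymus (n = 2). All cultured groups were primary iFoxn1/+ MEF, per the protocols, so the uninduced cells carried the iFoxn1 allele too. Foxn1 was switched on in the iTEC groups with a plasmid, pPGK-Cre, delivered by nucleofection. The genotype of the fetal TEC, the number of embryos pooled and whether replicates were separate cultures or animals are unknown here, so p-values may measure technical spread only. Replicates came closest to counting error at day 10 (median chi-square relative to expected 1.81 to 2.89, against 13.2 to 729 in the other groups). Tests with day 10 are the most open to this limit.

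Collagens are triple helices of 3 chains, which may be copies of 1 chain or products of different genes. Type I, III and V fibrils fill the spaces between cells and are the main product of fibroblasts. Type IV networks form the sheet under every epithelium, and Col7a1 and Col17a1 fasten skin-type epithelium to that sheet. In the thymus, fibroblasts of the capsule and septa make most of the interstitial collagen, and TEC rest on a Col4-rich basement membrane.

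Promoter bases are shown for the members whose levels moved most or that mark epithelium: Col3a1, with the largest fall at day 2 among the called members, Col19a1 and Col8a2, called as risen at day 10 and in Epcam-negative cells, and the pair Col7a1 and Col17a1. The bases lie before the annotated start on mm10 (RefSeq GRCm38.p6 windows of 250 bases, shortened where an annotated exon begins), 5′ to 3′ on the strand of the gene. Capitals mark matches on either strand to 5 motifs. These were TATAAA, the TATA box, and CCAAT, the box of that name. The others were the GC box GGGCGG, the core GACGC that Foxn1 recognises, and the AP-1 site TGANTCA. The positions are chr1:45311288-45311537 (plus) for Col3a1, chr1:24587473-24587687 (minus) for Col19a1, chr4:126286544-126286792 (plus) for Col8a2, chr9:108953336-108953585 (plus) for Col7a1 and chr19:47692095-47692292 (minus) for Col17a1.
Col3a1: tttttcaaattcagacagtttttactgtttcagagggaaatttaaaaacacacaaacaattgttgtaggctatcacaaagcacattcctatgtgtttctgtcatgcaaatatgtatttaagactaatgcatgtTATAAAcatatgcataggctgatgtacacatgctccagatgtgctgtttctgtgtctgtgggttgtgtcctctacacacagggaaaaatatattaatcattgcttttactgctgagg
Col19a1: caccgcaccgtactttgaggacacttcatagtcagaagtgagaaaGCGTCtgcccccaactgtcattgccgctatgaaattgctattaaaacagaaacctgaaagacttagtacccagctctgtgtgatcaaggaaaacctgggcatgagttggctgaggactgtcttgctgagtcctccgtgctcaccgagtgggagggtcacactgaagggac
Col8a2: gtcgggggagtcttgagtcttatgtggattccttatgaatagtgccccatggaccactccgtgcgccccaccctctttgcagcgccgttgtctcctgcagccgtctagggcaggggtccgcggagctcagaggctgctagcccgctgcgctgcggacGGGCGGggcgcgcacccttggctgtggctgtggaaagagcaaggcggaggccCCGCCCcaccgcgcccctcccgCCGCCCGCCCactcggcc
Col7a1: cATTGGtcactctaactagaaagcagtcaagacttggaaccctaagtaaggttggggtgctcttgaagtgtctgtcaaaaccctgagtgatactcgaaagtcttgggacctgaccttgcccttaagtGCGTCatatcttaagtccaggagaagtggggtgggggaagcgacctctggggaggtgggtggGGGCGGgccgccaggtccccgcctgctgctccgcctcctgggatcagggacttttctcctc
Col17a1: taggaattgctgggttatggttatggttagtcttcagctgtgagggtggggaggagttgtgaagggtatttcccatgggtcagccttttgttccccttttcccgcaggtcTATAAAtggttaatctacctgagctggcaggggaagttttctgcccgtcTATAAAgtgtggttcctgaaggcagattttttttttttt
Col3a1 and Col17a1 hold TATAAA, in 1 and 2 copies. Col8a2 has 4 GGGCGG matches and neither of the first 2 motifs. The Foxn1 core stands once each before Col19a1 and Col7a1, a gene that rose and a gene that fell, and is absent from the other 3 printed windows. Of the 44 members, 35 had a window (38 windows). GACGC was found in 18.4% of these and in 22.6% of all 32851 windows, and TATAAA in 13.2% against 12.4%. CCAAT was found in 34.2% against 33.8%, TGANTCA in 2.63% against 6.75% and GGGCGG in 57.9% against 32.7%. A match is a description of letters, and nothing about binding follows from it.

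The libraries held 35805780 to 86465460 counts, so 3 counts in 1 library correspond to 0.03 to 0.0776 CPM (counts scaled to library size with TMM factors). All levels of single genes below are on this scale unless given per kb, except that of Xist. Xist, Y-linked genes and all sums over markers are given as CPM without TMM factors, which ranged from 0.7053 to 1.156. Epithelial markers summed to 0.918 and 1.22 CPM in MEF, 956 to 3360 in day 2, day 10 and Epcam-negative libraries together, 2870 and 17500 in the Epcam-positive pair, and 15900 and 21300 in fetal TEC. At day 2 Krt18 alone gave 892 and 987 CPM, while Epcam (0.0907 and 0.143) and Cdh1 (0.254 and 0.247) were low. Epcam was at 5.03 to 5.53 CPM at day 10, 4.8 and 30.6 in the Epcam-positive pair and 312 and 574 in fetal TEC. The sum of Epcam-positive replicate 2 was nearly all Krt8 and Krt18 (11200 and 13400 CPM on the TMM scale). Its Cdh1 (24.5 CPM, against 299 and 315), Krt5 (21.9, against 315 and 411), Krt14 (8.4, against 224 and 349) and Cldn3 (1.54, against 83.6 and 139) were below fetal TEC. Cldn4 (115, against 92.1 and 251) lay between the fetal TEC libraries. Foxn1 RNA was at 18.3 and 13 CPM in MEF and at 292 to 468 in all other libraries. Fetal TEC also held thymocyte markers (1140 and 412 CPM), and MEF held macrophage markers (2290 and 2000 CPM, against 0.544 to 3.64 in the iTEC libraries other than Epcam-positive replicate 1, which had 165). Fetal TEC also had macrophage (455 and 382 CPM) and non-collagen fibroblast markers (1160 and 835 CPM, against 6410 and 5650 in MEF). Among the latter Dcn was higher in fetal TEC (671 and 659 CPM) than in MEF (138 and 156), and Lum was at 66.3 and 60.3 against 113 and 168. The part of these cell types in the levels of Col3a1, Col14a1 and the other members was not tested. The Epcam-positive pair differed widely, so its libraries are given one by one. Replicate 2 of this pair, like the fetal TEC libraries, lacked the relation of counts with transcript length seen in the other 10 libraries (Spearman rho over genes -0.036 to 0.019, against 0.306 to 0.35). Collagen transcripts are long (median 5989 bases, against 2699 over all symbols), so levels in those 3 libraries carry this difference. Xist was at 795 to 2280 CPM in MEF and Epcam-negative libraries and at most at 8.21 CPM elsewhere, while Y-linked genes gave 32.8 to 326 CPM in the other groups, so the sex of the cells differed between groups and cannot be told apart from them.

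Collagens took 7.64 and 7.5% of all counts in MEF, and far less in every iTEC and TEC library but 1. The share was 1.18 and 1.32% at day 2, 2.79, 2.91 and 2.66% at day 10, and 2.64 and 2.47% in Epcam-negative cells. Epcam-positive replicate 1 had 5.08% and replicate 2 had 0.339%. Fetal TEC had 0.468 and 0.239%. The share was thus lowest at day 2 among the replicated culture groups and did not return to the MEF level at day 10 or day 12. Non-collagen fibroblast markers summed to 6410 and 5650 CPM in MEF, 2910 in both day 2 libraries, 2070 to 2150 at day 10 and 3510 and 3300 in Epcam-negative cells. These sums join markers that moved in opposite directions. Vim was at 3480 and 2760 CPM in MEF and 174 and 152 in Epcam-negative cells. Fbln1 was at 101 and 114 CPM in MEF and 1010 and 949 in Epcam-negative cells. Of the 10 markers, 2 were called higher and 3 lower in Epcam-negative cells than in MEF (11.9% of all genes called). At day 10, 1 was higher and 4 lower (16.0% of all genes called). The part of fibroblast content in the collagen share was not tested. In bulk RNA, fewer cells of a type and less RNA per cell cannot be told apart. The fibrillar class made up most of the collagen share in every library, with 6.2 and 5.98% of counts in MEF, 0.77 and 0.898% at day 2 and 1.71 to 1.87% at day 10. Basement membrane collagens took 0.214 and 0.173% in MEF, 0.122 and 0.123% at day 2 and 0.254 to 0.265% at day 10, so that their share at day 10 lay above both MEF libraries while the fibrillar share lay below them.

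**Figure D1:**
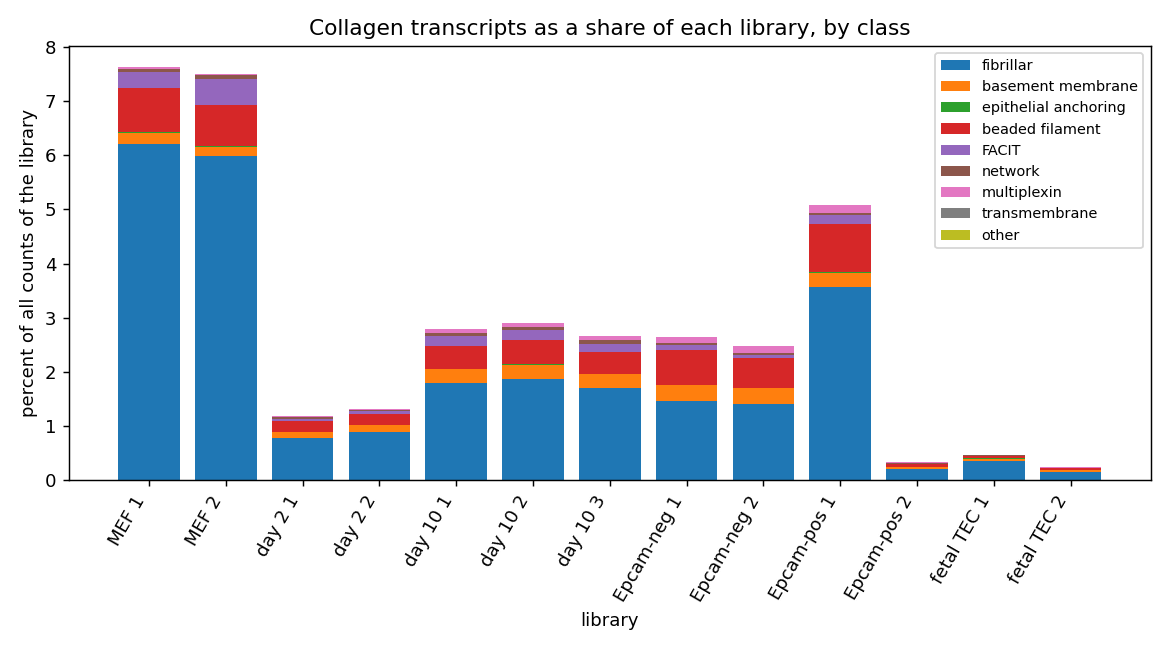
Stacked bars give the percent of each library's counts in collagen genes, by class; each bar is 1 library. MEF reach 7.64 and 7.5%, Epcam-positive replicate 1 reaches 5.08%, and Epcam-positive replicate 2 and fetal TEC stay at 0.239 to 0.468%.

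The test across all genes called few members in the cultures. At day 2 against MEF, 0 members were called higher and 3 lower of 43 tested (6.98%), against 5.52% of all tested genes. At day 10 against MEF 3 were higher and 6 lower (20.9%, against 16.0%), and at day 10 against day 2 6 were higher and 0 lower (14%, against 12.6%). In Epcam-negative cells against MEF 4 were higher and 5 lower (20.9%, against 11.9%). Between Epcam-positive and Epcam-negative cells edgeR called 0 members and 0.259% of all genes; 5 members (Col7a1, Col9a1, Col11a1, Col14a1 and Col19a1) had an unadjusted p under 0.05, and DESeq2 called 3 members. In fetal TEC against MEF 3 were higher and 18 lower (48.8%, against 57.8%). Day 10 iTEC against fetal TEC gave 23 higher and 7 lower (69.8%, against 59.3%), and Epcam-positive iTEC against fetal TEC 22 higher and 3 lower (58.1%, against 35.6%). The shares of members lay close to the background at day 2 and from day 2 to day 10, below it for fetal TEC against MEF, and furthest above it for Epcam-positive cells against fetal TEC. The member not tested is Col13a1, which was at 0 in all 11 culture libraries and at 2.05 and 0.0406 CPM in fetal TEC.

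The spread shared by all groups holds the Epcam-positive pair, and the counts moved with it. A fit of the 10 libraries with the usual relation to length, which leaves out fetal TEC and Epcam-positive replicate 2, tested 42 members. It called 4 higher and 28 lower at day 2 against MEF (39.5% of all genes called), 12 and 17 at day 10 against MEF (56.6%), and 28 and 3 at day 10 against day 2 (51.4%). Epcam-negative cells against MEF gave 14 and 16 (53.2%). The median log2 change of the tested members in this fit was -1.50 at day 2, -0.04 at day 10 and 1.10 from day 2 to day 10. In this fit most members were therefore lower at day 2, and most were higher at day 10 than at day 2. Where fetal TEC were compared, a correction for transcript length changed the split: 8 members higher and 15 lower than MEF in place of 3 and 18, 19 and 10 for day 10 against fetal TEC in place of 23 and 7, and 19 and 8 for Epcam-positive cells in place of 22 and 3. Without Epcam-positive replicate 1 this last split was 12 higher and 15 lower, and without replicate 2 it was 28 and 3. The median log2 change of members in fetal TEC against MEF was -1.81 without this correction (0.18 over all tested genes) and 0.03 with it.

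**Figure D2:**
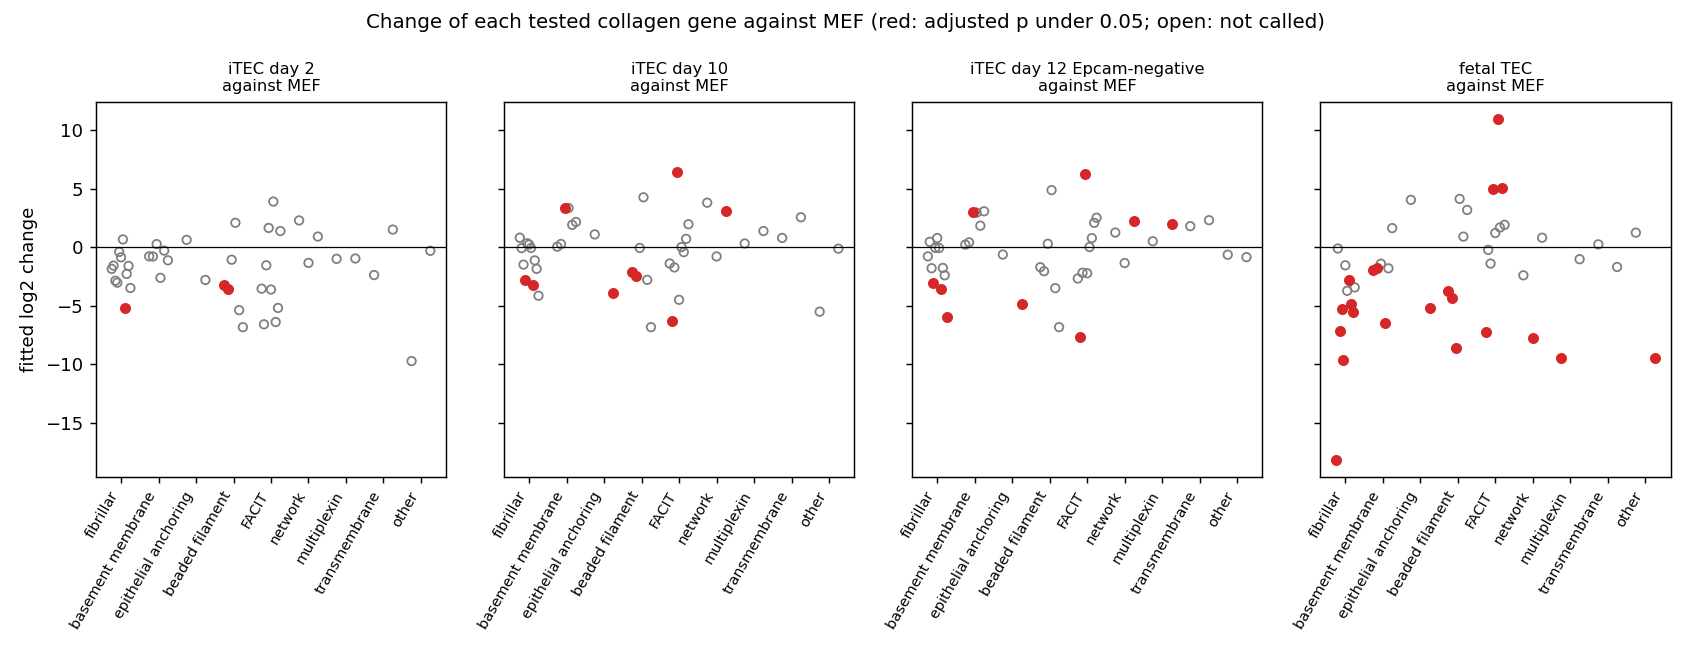
Each point is the fitted log2 change of 1 tested collagen gene against MEF, by class; red points had an adjusted p under 0.05 over all genes, and values of genes with no count in a group are no measure of size. At day 2, 3 members are red and all are lower, and in fetal TEC 18 are lower and 3 higher.

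Among the fibrillar genes, Col3a1 fell most at day 2. Col3a1 encodes the single chain of type III collagen, the fine fibrils of soft tissue. It was at 14700 and 13000 CPM in MEF, 348 and 383 at day 2, 1540, 1510 and 1430 at day 10, and 1110 and 1140 in Epcam-negative cells. It was at 3650 and 687 in the Epcam-positive pair and at 2540 and 1320 in fetal TEC. All 11 other libraries lay below both MEF libraries, and day 2 lay below every other group. The fall was 37.9-fold at day 2 (log2 -5.24 ± 0.75 (SE), n = 2 and 2, adjusted p = 0.00348), 9.27-fold at day 10 (-3.21 ± 0.58, adjusted p = 0.00557) and 12.3-fold in Epcam-negative cells (-3.62 ± 0.69, adjusted p = 0.0095). The day 2 call was lost without either day 2 library, and the Epcam-negative call without either Epcam-negative library. The rise from day 2 to day 10 (4.09-fold, log2 2.03 ± 0.62) had an adjusted p of 0.0601 and was called in the 10-library fit (1.99, adjusted p = 5.53e-06).

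Type I collagen, the main fibril, has a pair of chains from Col1a1 and one from Col1a2. Col1a1 was at 21800 and 27900 CPM in MEF, 3040 and 3720 at day 2, 8860, 9150 and 8400 at day 10 and 7280 and 6910 in Epcam-negative cells. The Epcam-positive pair had 16600 and 732 CPM, and fetal TEC 211 and 125 CPM. Col1a2 was at 15200 and 15800 CPM in MEF, 1750 and 2020 at day 2, 2250, 2260 and 2120 at day 10, 2040 and 1710 in Epcam-negative cells, 8140 and 851 in Epcam-positive cells and 504 and 288 in fetal TEC. All iTEC libraries, those of the Epcam-positive pair among them, lay below both MEF libraries for both genes. Col1a2 fell at day 10 (7.02-fold, log2 -2.81 ± 0.70, adjusted p = 0.0237) and in Epcam-negative cells (8.26-fold, -3.05 ± 0.82, adjusted p = 0.0398), calls that were lost when any library of the groups compared was left out. Its day 2 difference had an adjusted p of 0.0648. The values of Col1a1 were log2 -2.88 ± 1.02 at day 2 (adjusted p = 0.158) and -1.50 ± 0.86 at day 10 (adjusted p = 0.289); in the 10-library fit they were -2.81 (adjusted p = 1.54e-05) and -1.47 (adjusted p = 8.04e-05), both called. In fetal TEC both genes were lower than in MEF, Col1a1 148-fold (-7.21 ± 1.25, adjusted p = 0.00182) and Col1a2 39.1-fold (-5.29 ± 0.91, adjusted p = 0.00174). These folds are without the length correction, which moved the median log2 change of the fibrillar genes in this comparison from -4.86 to -2.56.

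The balance of these chains shifted between groups. Per kb of transcript, the ratio of Col1a1 to Col1a2 was 1.29 and 1.6 in MEF and 1.57 and 1.66 at day 2, then 3.56, 3.66 and 3.57 at day 10 and 3.21 and 3.65 in Epcam-negative cells. It was 1.84 and 0.776 in the Epcam-positive pair and 0.377 and 0.392 in fetal TEC. Day 10 did not overlap with MEF (exact permutation test, two-sided, p = 0.1 with 10 arrangements, the smallest p that n = 3 against 2 allows). Epcam-negative cells and fetal TEC did not overlap with MEF either (exact p = 0.333 each with 6 arrangements, again the smallest possible). Col3a1 to Col1a1 was 0.716 and 0.497 in MEF, between 0.11 and 0.185 at day 2, day 10 and in Epcam-negative cells, and 12.9 and 11.2 in fetal TEC. In fetal TEC Col3a1 was thus the leading fibrillar transcript per kb (mean 347 CPM per kb, against 74.1 for Col1a2 and 28.3 for Col1a1), while in MEF Col1a1 led (4190 CPM per kb, against 2900 and 2490). Because both chains have close lengths (5930 bases for Col1a1, 5348 for Col1a2 and 5564 for Col3a1), length differs little within these ratios.

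**Figure D3:**
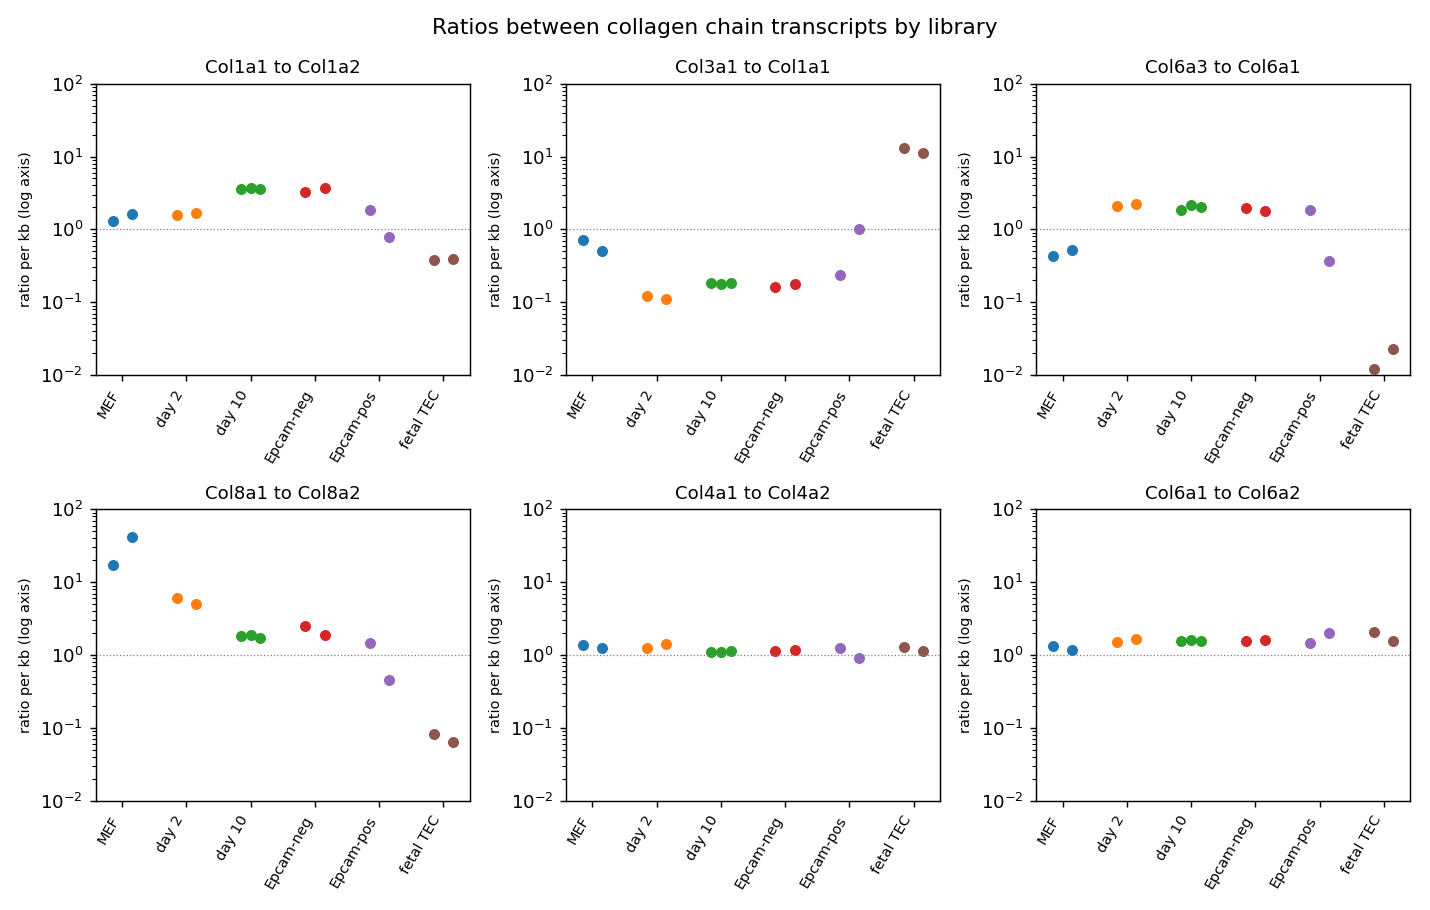
Ratios of CPM per kb between pairs of collagen genes, on a log axis; each point is 1 library. Col1a1 to Col1a2 sits at 3.56 to 3.66 at day 10 against 1.29 and 1.6 in MEF, while Col4a1 to Col4a2 stays between 0.921 and 1.4 in all 13 libraries.

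The other fibrillar genes did not share a pattern. Type V chains, which start fibrils, were lower outside MEF: Col5a1 was at 4860 and 3860 CPM in MEF, 878 and 898 at day 2, 1990, 2080 and 1870 at day 10, 1320 and 1210 in Epcam-negative cells, 3430 and 387 in Epcam-positive cells and 165 and 135 in fetal TEC. Col5a2 was at 3130 and 3520 CPM in MEF, 1090 in both day 2 libraries, 911 to 918 at day 10, 610 and 637 in Epcam-negative cells, 1280 and 167 in Epcam-positive cells and 82.1 and 56.8 in fetal TEC. Both were called lower than MEF in fetal TEC (log2 -4.86 ± 0.84, adjusted p = 0.00176, and -5.58 ± 0.82, adjusted p = 0.000863). Col5a1 did not overlap with MEF at day 2 or day 10 and was called there in the 10-library fit (-2.23 and -1.11, adjusted p = 1.92e-05 and 0.000151). The ratio of Col5a1 to Col5a2 per kb was 0.635 and 0.651 at day 2 and 1.62 to 1.78 at day 10. Col5a3 fell in Epcam-negative cells (5.13 and 1.85 CPM, against 272 and 158 in MEF, log2 -5.95 ± 1.69, adjusted p = 0.0492), a call that was lost when any one library other than an Epcam-positive one was left out.

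Col11a1, a chain of the thin fibrils of cartilage that also joins type V fibrils, followed another pattern. It was at 551 and 622 CPM in MEF, 170 and 152 at day 2, 1010, 1050 and 1010 at day 10, 346 and 330 in Epcam-negative cells and 198 and 28.8 in Epcam-positive cells. Fetal TEC had 0 counts in both libraries. Day 10 stood above every other library, and it was called above day 2 (6.35-fold, log2 2.67 ± 0.68, adjusted p = 0.035), a call that was lost without any one MEF, day 2, day 10 or Epcam-negative library and held in the 10-library fit (2.63, adjusted p = 2.39e-06). Against 3 counts over the fetal TEC group, Col11a1 was at least 22200-fold lower in fetal TEC than in MEF and at least 38900-fold higher at day 10 (adjusted p = 7.81e-05 and 5.12e-05). Cartilage markers summed to 46.2 and 51 CPM in MEF, 14.1 and 15.3 at day 2, 9.9 to 11.2 at day 10, 8.82 and 9.03 in Epcam-negative cells, 18.3 and 4.58 in Epcam-positive cells and 61.3 and 65 in fetal TEC, and their part in the level of Col11a1 was not tested. Col24a1, another minor fibrillar gene, was at 36.7 to 84.2 CPM in MEF and in the iTEC libraries other than Epcam-positive replicate 2 (9.29) and at 0 and 0.142 in fetal TEC (log2 -9.66 ± 1.41 against MEF, adjusted p = 0.000812). Col27a1 ranged from 15 to 182 CPM and was not called against MEF in the fit of all libraries. In the 10-library fit it was lower at day 2 (log2 -0.81, adjusted p = 0.0091) and higher in Epcam-negative cells (0.80, adjusted p = 0.00666). Col2a1 (0 to 13.8 CPM) and Col11a2 (0 to 4.03 CPM), which belong to cartilage, were low throughout.

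**Figure D4:**
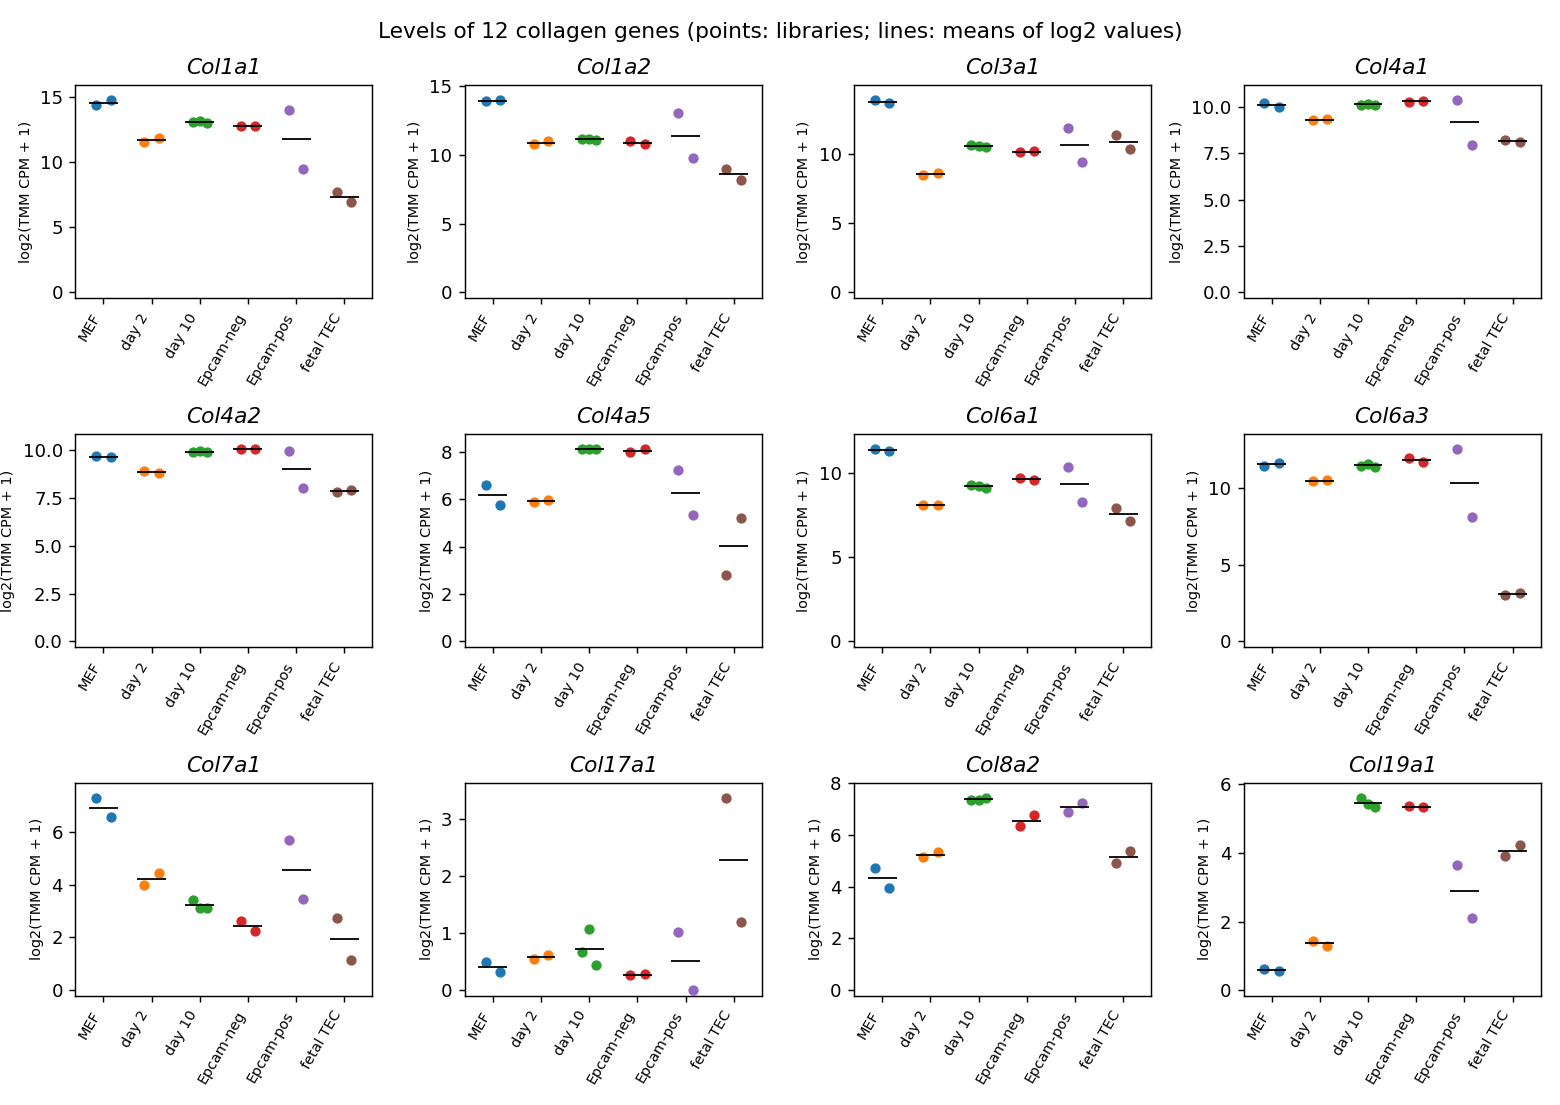
Levels of 12 collagen genes as log2(CPM + 1); each point is 1 library and each line the mean of the log2 values of its group. Col3a1 drops from MEF to day 2 and Col19a1 rises at day 10, while the 2 Epcam-positive points stand far apart for Col1a1, Col6a3 and Col4a1.

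In the basement membrane class the common chains were lowest at day 2 among the replicated cultures and near the MEF level at day 10. Col4a1 and Col4a2 form the network found under nearly all cell layers. Col4a1 was at 1160 and 1030 CPM in MEF, 625 and 637 at day 2, 1110, 1140 and 1110 at day 10, 1240 and 1290 in Epcam-negative cells, 1300 and 248 in the Epcam-positive pair and 296 and 277 in fetal TEC. Col4a2 was at 831 and 795, 490 and 442, 962, 999 and 961, 1070 and 1070, 1010 and 263, and 225 and 238 CPM in the same order. For both genes day 2 lay below MEF, and day 10 overlapped with MEF for Col4a1 and lay above it for Col4a2. Neither gene was called between culture groups in the fit of all libraries. In the 10-library fit both were lower at day 2 (log2 -0.73 each) and higher at day 10 than at day 2 (0.79 and 1.03, adjusted p = 0.000313 and 7.53e-05). That fit also called Col4a2, but not Col4a1, above MEF at day 10 (log2 0.29, adjusted p = 0.0315) and in Epcam-negative cells (0.43, adjusted p = 0.00942). In fetal TEC both were called lower than MEF (Col4a1 log2 -1.94 ± 0.59, adjusted p = 0.0192, and Col4a2 -1.81 ± 0.50, adjusted p = 0.0135), but with the correction for transcript length the values were -0.04 and 0.03 and neither was called. Both calls were also lost without either fetal TEC library, and that of Col4a1 without either MEF library.

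The ratio of Col4a1 to Col4a2 per kb stayed between 0.921 and 1.4 in all 13 libraries, the smallest range of the chain ratios computed (highest over lowest 1.52). The pair lies head to head on chromosome 8 (Col4a1 from 11198423 to 11312826 on the minus strand, Col4a2 from 11312805 to 11449287 on the plus strand), so the annotated genes share 22 bases at their starts. The next narrowest ratio, Col6a1 to Col6a2, ranged from 1.18 to 2.08 (1.76), and those genes lie 85161 bases apart on the same strand.

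The rarer type IV chains were higher at day 10 and in Epcam-negative cells. Col4a5, an X-linked chain of the epithelial networks of kidney and lung, was at 94.7 and 53.4 CPM in MEF, 58.1 and 61.9 at day 2, 275, 275 and 276 at day 10 and 251 and 274 in Epcam-negative cells. It was at 150 and 38.9 in Epcam-positive cells and at 5.92 and 36.1 in fetal TEC. Day 10 and Epcam-negative libraries stood above all others. The difference from MEF was 3.72-fold at day 10 (log2 1.90 ± 0.74, adjusted p = 0.118) and was called in the 10-library fit (1.93, adjusted p = 0.000203), as was that of Epcam-negative cells (1.86, adjusted p = 0.000376). The ratio of Col4a5 to Col4a1 per kb was 0.0823 and 0.0525 in MEF, 0.252, 0.244 and 0.252 at day 10 and 0.204 and 0.215 in Epcam-negative cells. Day 10 cells carried Y-linked RNA, and Epcam-negative cells and MEF carried Xist. The part of the sex of the cells in the level of Col4a5 was not tested.

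Col4a6, its X-linked neighbour 1308 bases away in the opposite direction, was at 2.16 and 1.42 CPM in MEF, 0.798 and 0.831 at day 2, 8.64, 7.71 and 7.37 at day 10 and 13.4 and 16.4 in Epcam-negative cells. It was at 3.38 and 0 CPM in Epcam-positive cells and at 2.08 and 8.92 in fetal TEC. It was not called against MEF in the fit of all 13 libraries and was called above it in the 10-library fit (2.17 at day 10 and 3.08 in Epcam-negative cells, adjusted p = 8.9e-05 and 2.35e-05). Col4a5 exceeded Col4a6 per kb by 17 to 75.7 times in the cultures with a count for both and by 2.89 and 4.11 times in fetal TEC.

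Col4a3 and Col4a4, which join Col4a5 in the kidney filter, were scarce. Col4a3 was at 0.221 and 0.281 CPM in MEF, 0.272 and 0.325 at day 2, 3.25, 2.08 and 2.53 at day 10 and 1.48 and 2.61 in Epcam-negative cells. It was at 1.02 and 0.308 in Epcam-positive cells and at 0.0459 and 0.142 in fetal TEC. It rose at day 10 (10.4-fold, log2 3.38 ± 0.84, adjusted p = 0.024) and in Epcam-negative cells (8.12-fold, 3.02 ± 0.86, adjusted p = 0.0491), calls that were lost when any library of the groups compared was left out. Col4a4 was at 0.166 and 0.201 CPM in MEF, 0 and 0.052 at day 2, 2.2, 1.38 and 2.02 at day 10, 0.833 and 2 in Epcam-negative cells, 0.621 and 0 in Epcam-positive cells, and had no count in fetal TEC. Its values at day 10 and in Epcam-negative cells, log2 3.34 ± 1.57 and 2.94 ± 1.60, had adjusted p of 0.199 and 0.295 and were called in the 10-library fit. In fetal TEC Col4a4 was at least 6.88-fold lower than in MEF (22 counts over both MEF libraries, adjusted p = 0.0489), a call lost under most alternatives. This pair also lies head to head, with 71 bases between the annotated starts (chr1:82586850-82586920). They are shown on the strand of Col4a4 because both genes were higher at day 10 and in Epcam-negative cells than in MEF.
Col4a4 and Col4a3: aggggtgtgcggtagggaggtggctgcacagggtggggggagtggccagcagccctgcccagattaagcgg
None of the 5 motifs was found in these 71 bases. The ratio of Col4a3 to Col4a4 per kb was 1.58 and 1.65 in MEF, 1.75, 1.77 and 1.48 at day 10 and 2.1 and 1.54 in Epcam-negative cells, so the levels of both genes differed between MEF and day 10 by similar factors. It was 7.39 in day 2 replicate 2, which had 4 counts of Col4a4, and 1.95 in Epcam-positive replicate 1. The other libraries had counts of Col4a3 but none of Col4a4.

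Neither gene of the epithelial class was called higher in an iTEC group than in MEF. Col7a1, the chain of the anchoring fibrils under stratified epithelium, was highest in MEF. Its level was 157 and 94.4 CPM there, 14.9 and 20.9 at day 2, 9.8, 7.69 and 7.76 at day 10, 5.11 and 3.72 in Epcam-negative cells, 51.3 and 10 in Epcam-positive cells, and 5.66 and 1.22 in fetal TEC. No other library overlapped with MEF. It fell 14.9-fold at day 10 (log2 -3.90 ± 0.74, adjusted p = 0.00687), 28.4-fold in Epcam-negative cells (-4.83 ± 0.91, adjusted p = 0.00866) and was 36.4-fold lower in fetal TEC (-5.19 ± 0.92, adjusted p = 0.00205). The day 2 value, -2.81 ± 0.82, had an adjusted p of 0.0868. The Epcam-negative call was lost without either Epcam-negative library. Both Epcam-positive libraries stood above both Epcam-negative ones (log2 2.80 ± 0.83, adjusted p = 0.195); with replicate 1 as the lone Epcam-positive library of the 10-library fit, assumed to vary like the other groups, the value was 3.50 (adjusted p = 0.00139).

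Col17a1, a membrane collagen of hemidesmosomes, was near the limit of detection in culture. It was at 0.401 and 0.241 CPM in MEF, 0.453 and 0.533 at day 2, 0.588, 1.1 and 0.362 at day 10, 0.201 and 0.21 in Epcam-negative cells, and 1.02 and 0 in Epcam-positive cells. Fetal TEC had 9.29 and 1.28 CPM and stood above every culture library. The difference of fetal TEC from MEF (log2 4.03 ± 1.63) had an adjusted p of 0.0567, and it was called with the correction for transcript length (5.40 ± 1.45, adjusted p = 0.012). Per kb, Col17a1 in fetal TEC (0.946 CPM per kb) exceeded Col7a1 (0.372), the reverse of the order in each culture group. These transcripts differ in length (5588 and 9250 bases), and fetal TEC lacked the usual relation of counts with length. Before division by length, fetal TEC replicate 2 had 1.28 and 1.22 CPM. The order was not tested with the length correction.

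In the beaded filament class the first 2 chains fell at day 2 and day 10, and the third was lower at day 2 without a call in the fit of all libraries. Col6a1, Col6a2 and Col6a3 assemble 1 to 1 to 1 into the microfibrils around cells. Col6a1 was at 2690 and 2530 CPM in MEF, 273 and 269 at day 2, 615, 594 and 547 at day 10, 829 and 756 in Epcam-negative cells, 1310 and 302 in Epcam-positive cells and 242 and 142 in fetal TEC. Col6a2 was at 2450 and 2570, 215 and 196, 478, 445 and 427, 627 and 571, 1070 and 180, and 139 and 108 CPM in that order. Both fell at day 2, Col6a1 9.63-fold (log2 -3.27 ± 0.60, adjusted p = 0.0125) and Col6a2 12.2-fold (-3.61 ± 0.67, adjusted p = 0.0136), and both were lower than MEF at day 10 (-2.16 ± 0.50, adjusted p = 0.017, and -2.48 ± 0.55, adjusted p = 0.015). The day 2 calls were lost without MEF replicate 2 or either day 2 library, and the day 10 calls without any one MEF or day 10 library.

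Col6a3 was at 2830 and 3270 CPM in MEF, 1430 and 1460 at day 2, 2820, 3140 and 2710 at day 10, 4070 and 3350 in Epcam-negative cells, 6030 and 276 in Epcam-positive cells and 7.26 and 7.87 in fetal TEC. Day 2 lay below MEF, with a call in the 10-library fit (log2 -1.01, adjusted p = 0.00114) but not with all 13 libraries (-1.08 ± 0.93, adjusted p = 0.677). Day 10 overlapped with MEF (-0.08 ± 0.84), and Epcam-negative cells stood above MEF without a call (0.28 ± 0.92, adjusted p = 0.928). The ratio of Col6a3 to Col6a1 per kb was 0.427 and 0.524 in MEF and between 1.8 and 2.2 in all 7 libraries of day 2, day 10 and Epcam-negative cells. In fetal TEC it was 0.0122 and 0.0225, with Col6a3 403-fold lower than in MEF (-8.66 ± 1.28, adjusted p = 0.000875) and Col6a1 13.6-fold lower (-3.77 ± 0.61, adjusted p = 0.00133). The Col6a3 transcript is longer (10106 bases, against 4100 for Col6a1), and with the length correction its change was -6.07 (adjusted p = 3.1e-05). Col6a4, Col6a5 and Col6a6, neighbours on chromosome 9 whose reads may be shared between near copies, ranged from 0 to 10.3 CPM.

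Among the FACIT genes, which coat fibrils, Col19a1 rose and Col14a1 fell. Col19a1, a minor collagen of basement membrane zones and muscle, was at 0.539 and 0.481 CPM in MEF, 1.72 and 1.45 at day 2, 47.6, 42.2 and 39.9 at day 10, 40.2 and 39.2 in Epcam-negative cells, 11.6 and 3.29 in Epcam-positive cells and 14 and 17.8 in fetal TEC. No group overlapped with MEF. It rose 84.3-fold at day 10 (log2 6.40 ± 0.61, adjusted p = 0.000186) and 77.4-fold in Epcam-negative cells (6.27 ± 0.62, adjusted p = 0.000278), and was 31-fold higher in fetal TEC (4.95 ± 0.58, adjusted p = 0.000271). It was also higher at day 10 than at day 2 (27.2-fold, 4.76 ± 0.56, adjusted p = 0.00069). It was the only member called higher in each of the comparisons of day 10, Epcam-negative and fetal TEC with MEF, and these share the MEF libraries. None of these calls was lost under any alternative. The gene lies on chromosome 1 from 24261890 to 24587472 on the minus strand, with its end 9205 bases from that of Col9a1, which stayed between 0 and 0.719 CPM.

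Col14a1, a FACIT of dense connective tissue, was at 30.9 and 52.9 CPM in MEF and 44.8 and 26.1 in fetal TEC, and between 0.0862 and 0.712 in the 7 libraries of day 2, day 10 and Epcam-negative cells. Epcam-positive cells had 9.1 and 0 CPM. It fell 78.4-fold at day 10 (log2 -6.29 ± 1.55, adjusted p = 0.0233) and 211-fold in Epcam-negative cells (-7.72 ± 1.99, adjusted p = 0.0339), calls that were lost when any library of the groups compared was left out. Col12a1, which links fibrils to their surroundings, was at 2740 and 5090 CPM in MEF, 356 and 310 at day 2, 1560, 1550 and 1330 at day 10, 729 and 488 in Epcam-negative cells, 1470 and 75 in Epcam-positive cells and 25.2 and 25.1 in fetal TEC, where it was 156-fold lower than in MEF (-7.28 ± 1.21, adjusted p = 0.0015). Its transcript is the longest of the members (11511 bases), so this fold carries the length difference of the fetal TEC libraries. Col16a1 was at 157 and 73.1 CPM in MEF, 36.2 and 41.8 at day 2, 35, 35.6 and 32.4 at day 10, 24.7 and 25.3 in Epcam-negative cells, 79.5 and 1.16 in Epcam-positive cells and 44.5 and 41.8 in fetal TEC. Col16a1 was not called against MEF in the fit of all libraries, and in the 10-library fit it was lower at day 2 (log2 -1.49, adjusted p = 0.00598), day 10 (-1.71, adjusted p = 0.00103) and in Epcam-negative cells (-2.16, adjusted p = 0.000724). Col22a1, a collagen of tissue junctions, had no count in MEF and 2.85 and 5.13 CPM in fetal TEC, at least 156-fold higher (adjusted p = 0.0137), a call that was lost without either MEF library. Col9a2 was called higher in fetal TEC too, at 4.27 and 0.568 CPM (log2 5.03 ± 1.72, adjusted p = 0.0337, lost without either MEF library or fetal TEC replicate 1), and the Col9a1 call of day 10 against day 2 (at least 5.26-fold higher, adjusted p = 0.0387) rested on few counts and was lost in most alternatives. Col9a3 and Col20a1 stayed between 0 and 4.26 CPM.

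In the network-forming class Col8a2 rose in culture while its partner Col8a1 was lower than in MEF without a call at day 10 (log2 -0.80, adjusted p = 0.157). In the 10-library fit Col8a1 was called lower at day 10 (-0.77, adjusted p = 0.00233). Col8a1 and Col8a2 make the hexagonal lattice of vessel walls and the cornea, and Col10a1 that of growth-plate cartilage. Col8a2 was at 25.2 and 14.6 CPM in MEF, 34.6 and 39.5 at day 2, 164, 163 and 172 at day 10, 80.2 and 109 in Epcam-negative cells, 119 and 149 in Epcam-positive cells and 28.9 and 40.2 in fetal TEC. It rose 8.36-fold at day 10 (log2 3.06 ± 0.34, adjusted p = 0.000412) and 4.77-fold in Epcam-negative cells (2.25 ± 0.35, adjusted p = 0.00275), and no alternative ended either call. It is one of few members for which the Epcam-positive libraries lie close together. Col8a1 was at 515 and 717 CPM in MEF, 251 and 233 at day 2, 357, 358 and 345 at day 10, 235 and 243 in Epcam-negative cells, 203 and 80.2 in Epcam-positive cells and 2.79 and 3.02 in fetal TEC, where it was 212-fold lower than MEF (-7.73 ± 0.52, adjusted p = 2.11e-05). The ratio of Col8a1 to Col8a2 per kb was 17.3 and 41.8 in MEF, 6.15 and 5 at day 2, 1.85, 1.86 and 1.7 at day 10, 2.49 and 1.88 in Epcam-negative cells, 1.45 and 0.457 in Epcam-positive cells and 0.0818 and 0.0637 in fetal TEC. Every group lay below MEF in this ratio, which had the widest range of those computed (656-fold).

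Col10a1 was at 5.57 and 5.56 CPM in MEF, 26.7 and 27.2 at day 2, 74.6, 76.2 and 80 at day 10 and 8.91 and 17.4 in Epcam-negative cells. It was at 32.3 and 0.693 in Epcam-positive cells and at 0.475 and 1.62 in fetal TEC. Day 10 stood above every other library. The difference from MEF (13.8-fold, log2 3.79 ± 1.23) had an adjusted p of 0.0652 and was called in the 10-library fit (3.82, adjusted p = 1.78e-05), and day 10 was called above fetal TEC (73.6-fold, 6.20 ± 1.40, adjusted p = 0.00519). Bone markers summed to 2.1 and 3.43 CPM in MEF and 83.2 to 94.6 at day 10, where 4 of 6 were called higher (16.0% of all genes called), and to 157 and 180 in Epcam-negative cells. Most of these iTEC sums was Sp7, at 67.3, 66.6 and 62.4 CPM at day 10 and 140 and 118 in Epcam-negative cells. At day 10 Alpl was at 12.9, 16.7 and 11.6 CPM, and Bglap, Ibsp and Dmp1 were at most at 0.487 CPM. The part of the bone markers in the level of Col10a1 was not tested.

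The multiplexins, whose ends release anti-angiogenic fragments, are parts of basement membranes. Col18a1 was at 298 and 171 CPM in MEF, 116 and 122 at day 2, 603, 614 and 601 at day 10, 956 and 928 in Epcam-negative cells, 1120 and 306 in Epcam-positive cells and 106 and 123 in fetal TEC. It rose from day 2 to day 10 (5.09-fold, log2 2.35 ± 0.51, adjusted p = 0.0148) and was higher in Epcam-negative cells than in MEF (4.02-fold, 2.01 ± 0.52, adjusted p = 0.0357). The first call was lost without either day 2 library and the second without any one library other than an Epcam-positive one. Col15a1 was at 47.4 and 80.7 CPM in MEF, 32.7 and 31.2 at day 2, 81.2, 81.1 and 75 at day 10, 72 and 109 in Epcam-negative cells, 197 and 0 in Epcam-positive cells and 0.0612 and 0.122 in fetal TEC. It was called lower in fetal TEC than in MEF (log2 -9.45 ± 2.62, adjusted p = 0.0136), but not without either fetal TEC library.

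Of the remaining members, the transmembrane genes Col23a1 and Col25a1 were highest in Epcam-positive replicate 1 (10.4 and 18 CPM). Col25a1 was at 0.498 and 0.682 CPM in MEF, 1.83 and 1.49 at day 2, 3.92, 3.69 and 2.74 at day 10, 3.12 and 2.67 in Epcam-negative cells, 18 and 0.128 in Epcam-positive cells and 0.138 and 0.223 in fetal TEC. Day 10 was called above fetal TEC for Col25a1 (log2 4.25 ± 1.48, adjusted p = 0.0321), a call that did not hold with the length correction. Col23a1 was at 2.2 and 0.983 CPM in MEF, 0.399 and 0.208 at day 2, 3.16, 2.41 and 2.64 at day 10 and 5.26 and 5.74 in Epcam-negative cells, 10.4 and 1.46 in Epcam-positive cells and 2.63 and 1.09 in fetal TEC. Col26a1 had no count at day 2, 2.14 and 1.3 CPM in MEF and 4.84 and 3.26 in fetal TEC. Col28a1 was at 0.67 to 1.72 CPM in all cultures but Epcam-positive replicate 2 and had no count in fetal TEC, at least 54.4-fold below MEF (adjusted p = 0.0105).

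**Figure D5:**
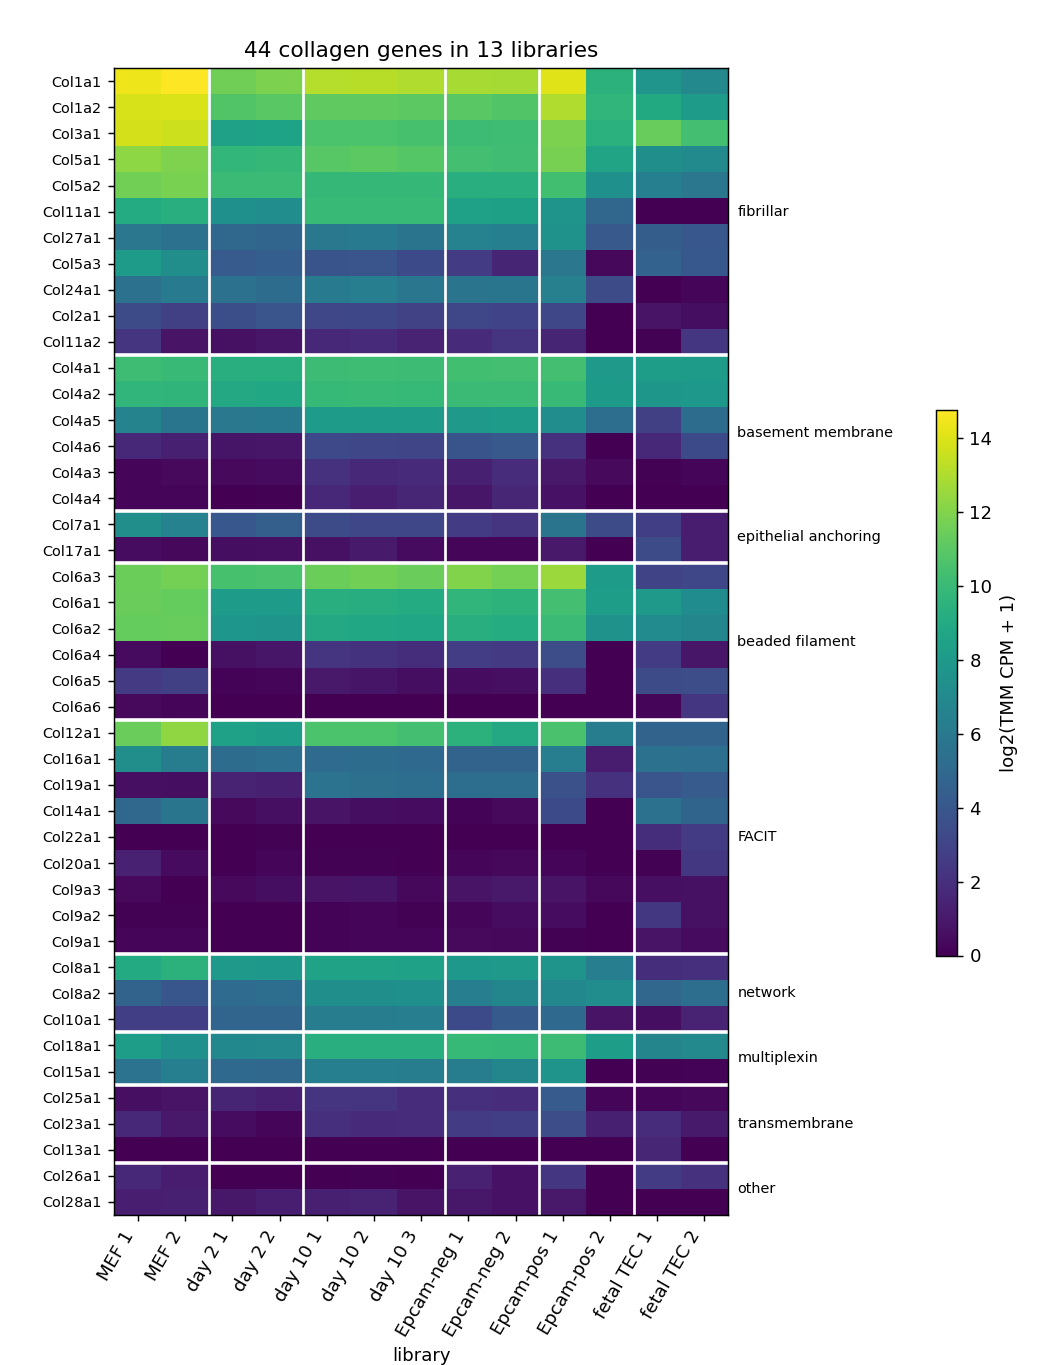
Heat map of log2(CPM + 1) for the 44 collagen genes (lines, grouped by class and ordered by mean CPM) in 13 libraries (columns). The main fibrillar genes are brightest in MEF, the 2 Epcam-positive columns differ (Col1a1 at 16600 and 732 CPM), and Col11a1, Col24a1 and Col15a1 are dark in fetal TEC.

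Of the Epcam-positive pair, replicate 1 was above both Epcam-negative libraries for Col1a1, Col1a2, Col3a1, Col5a1, Col6a1, Col6a2, Col7a1 and Col14a1, and below them for Col4a5, Col4a6, Col11a1 and Col19a1. As the lone Epcam-positive library of the 10-library fit, assumed to vary like the other groups, it gave 15 members called higher and 3 lower (10.1% of all genes called), among them Col1a2 (log2 2.08, adjusted p = 0.000449) and Col3a1 (1.66, adjusted p = 0.000584) higher, and Col4a6 (-2.18, adjusted p = 0.00384) and Col19a1 (-1.81, adjusted p = 0.00139) lower. Epcam-positive replicate 2 lay below both Epcam-negative libraries for Col1a1, Col1a2, Col4a1, Col4a2 and Col6a3, and without replicate 1 a fit of the other 12 libraries called 34 members lower and 0 higher, with 53.5% of all genes called. That arm is then a single library without the usual relation to length, and its spread is assumed to be that of the other groups. Against fetal TEC, both Epcam-positive libraries were higher for Col1a1, Col5a1, Col5a2, Col6a3, Col8a1 and Col11a1. With both libraries, Col6a3 differed 417-fold (8.70 ± 1.28, adjusted p = 0.00128), Col1a1 51.6-fold (5.69 ± 1.17, adjusted p = 0.00613), Col24a1 695-fold (9.44 ± 1.40, adjusted p = 0.00132) and Col11a1, with the counts of both pooled, at least 5560-fold (adjusted p = 0.00019). Col11a1 was at 198 and 28.8 CPM in the pair, so the bound for replicate 2 alone would be lower. Without replicate 1 the log2 differences were 5.20 for Col6a3, 2.13 for Col1a1 and 7.17 for Col24a1, and without replicate 2 they were 9.65, 6.64 and 10.36. Macrophage markers summed to 165 CPM in replicate 1 and to 2.15 and 2.14 in Epcam-negative cells. The sum of non-collagen fibroblast markers was also higher in replicate 1 (4580 CPM, against 3510 and 3300). Vim (1090 CPM, against 174 and 152) was among the markers higher there, while Fbln1 (887, against 1010 and 949) and Twist1 (97.4, against 117 and 131) were lower. The part of both marker sets in the collagen levels of replicate 1 was not tested. A fit of Epcam-positive cells and fetal TEC alone called 2 members in place of 25, and the calls of Col6a3, Col24a1 and Col1a1 were lost in it.

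Day 10 iTEC had transcripts that fetal TEC hardly had. Beside Col11a1, the largest differences with a call were those of Col24a1 (1010-fold higher at day 10, log2 9.98 ± 1.41, adjusted p = 0.000557), Col15a1 (866-fold, 9.76 ± 2.62, adjusted p = 0.0109) and Col6a3 (382-fold, 8.58 ± 1.26, adjusted p = 0.000686). The Col15a1 call was lost without either fetal TEC library. Col1a1 was 52.4-fold higher at day 10 (5.71 ± 1.15, adjusted p = 0.003), Col4a5 13.1-fold (3.71 ± 0.82, adjusted p = 0.00457) and Col19a1 2.72-fold (1.45 ± 0.47, adjusted p = 0.0237), whereas Col3a1 was at log2 -0.37 (adjusted p = 0.587). By class, 6 of 11 fibrillar and 5 of 6 basement membrane genes were higher at day 10, where 59.3% of all genes were called. With the length correction 6 fibrillar genes were higher and 1 lower, and 3 basement membrane genes were higher. Col4a1 (log2 0.04, adjusted p = 0.884), Col4a2 (0.19, adjusted p = 0.498) and Col19a1 (0.01, adjusted p = 0.974) then did not pass the test. The members lower at day 10 were FACIT genes (4 of 9), Col6a5, Col6a6 and Col26a1. Col14a1 was 66.3-fold lower (-6.05 ± 1.54, adjusted p = 0.00871), and Col6a5, a chain found in skin, was at 1.01, 0.794 and 0.465 CPM at day 10 and 9.32 and 10.3 in fetal TEC (-3.69 ± 1.30, adjusted p = 0.0335), a call that was lost when any one library other than an Epcam-positive one was left out.

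Genes that process, bind or break down collagen were read beside the members. Of 31 genes for chain synthesis, folding, trimming and cross-linking, 2 were higher and 8 lower at day 10 than in MEF (median log2 -0.86, against 0 over all genes), with 16.0% of all genes called. The cross-linking enzyme Loxl4 rose (1320, 1320 and 1390 CPM, against 48.8 and 13.4, log2 5.43, adjusted p = 0.000359), as did Adamts2, which trims the ends of fibrillar procollagen (953, 921 and 921 CPM, against 165 and 123, 2.69, adjusted p = 0.00351). Plod1, a lysyl hydroxylase, fell (-1.47, adjusted p = 0.00334). At day 2, 2 of the 31 were higher and 3 lower (5.52% of all genes called), with Loxl4 again the gene of smallest p (4.05, adjusted p = 0.00319). In fetal TEC 2 were higher and 20 lower than in MEF (median -2.01, with 57.8% of all genes called), with Loxl1 lowest in p (-5.74, adjusted p = 0.000235).

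Of 9 collagen receptors, 2 were higher and 1 lower at day 10 than in MEF (16.0% of all genes called), with a median log2 change of -0.39. Itga2, the integrin chain of epithelium and platelets, was at 50, 45.9 and 47.8 CPM against 0.0276 and 0 (adjusted p = 9.59e-05; with so few counts in MEF the fitted fold is no measure of size), and Ddr1, the discoidin receptor of epithelia, at 484, 478 and 490 against 66 and 30.6 (3.32, adjusted p = 0.000953). Ddr2, its counterpart of mesenchyme, was at 422, 423 and 392 CPM at day 10, 479 and 645 in MEF and 8.82 and 6.31 in fetal TEC (-6.21 in fetal TEC against MEF, adjusted p = 1.98e-05). In fetal TEC 1 of the 9 was higher and 6 lower than in MEF (57.8% of all genes called). Counts of these lists in fetal TEC were not repeated with the length correction. Both discoidin receptors were present at day 10, while in fetal TEC Ddr1 (165 and 223 CPM) stood far above Ddr2.

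Of 13 partners of type IV collagen in basement membranes, 3 were higher and 1 lower at day 10 than in MEF (16.0% of all genes called). Their median log2 change was -0.94, against 0 over all genes, so most were lower, largely without a call. The epithelial laminin chain Lama5 rose (552, 588 and 491 CPM, against 108 and 41.9, log2 2.86, adjusted p = 0.0145), as did Agrn (2.12, adjusted p = 0.0286), and the laminin linker Nid1 fell (133, 130 and 130 CPM, against 855 and 1250, -3.00, adjusted p = 0.00598). In fetal TEC 10 of the 13 were lower than in MEF (57.8% of all genes called). Of 10 genes of collagen breakdown and its inhibitors, 0 were higher and 3 lower at day 10 than in MEF (16.0% of all genes called), with Mmp13 at 2.17 to 2.71 CPM against 43.7 and 68.3 (-4.54, adjusted p = 0.0177). The median log2 change of these 10 genes was -0.79. Mmp9, a gelatinase, was at 386 and 422 CPM in fetal TEC and 1.92 and 2.19 in MEF (7.62, adjusted p = 0.00179).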

How the data were processed

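RNA of 13 mouse libraries was measured by sequencing. The deposited table holds raw counts per gene symbol, made by the authors. FastQC, Trimmomatic, HISAT2, SAMtools, StringTie, DESeq2 and mm10 are named per the submitters' processing notes, without roles; strand and the handling of shared reads are not stated there. The columns labelled No_Cre were read as MEF. Counts were tested with edgeR 4.0.16 in R 4.3.3: TMM, filterByExpr by group (17004 genes), 1 robust quasi-likelihood fit of all 13 libraries, Benjamini-Hochberg over all tested genes, calls at an adjusted p under 0.05. SE were taken from the log2 change and its F value. Lengths and positions came from GENCODE M21. The steps were tested on simulated data. Intervals and lower bounds (3 counts) cover counting error only. All members are accounted for; named changes are the up to 4 largest called rises and falls per comparison with no overlap and at least 5 CPM, beside genes fixed by class, and other genes or calls named were chosen after their values were seen. Of the pathway lists the genes of smallest p are named. Members and lists were chosen with earlier results of these data known. Alternatives, with DESeq2 1.42.0 among them, are in the closing part. Figures used Python 3.11.15 and matplotlib 3.10.9.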

Additional observations from a re-analysis of the deposited data

How the results depend on the processing

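Counts of called members depended most on the libraries that shared the fit. Leaving out both Epcam-positive libraries, an alternative chosen after seeing the data, gave 28 members called at day 2 against MEF (3 with all libraries), 26 at day 10 against MEF (9), 25 at day 10 against day 2 (6), 26 in Epcam-negative cells against MEF (9) and 33 in fetal TEC against MEF (21). The shares of all genes called in that fit were 22.8, 40.2, 35.0, 35.7 and 74.2%. The fit of the 10 libraries gave 32, 29, 31 and 30 in the first 4 of these and 18 for Epcam-positive replicate 1 against Epcam-negative cells (0), and fits of the groups compared alone gave 19, 27, 31 and 26, and 2 for Epcam-positive cells against fetal TEC (25). DESeq2's Wald test gave 16, 15, 12 and 16, and 3 between the Epcam fractions. The correction for transcript length gave 15, 17, 12 and 15, and 1 between the fractions. With each library left out in turn, with a lone sample assumed to vary like the other groups, the counts ranged from 0 to 27 at day 2 against MEF, 4 to 26 at day 10 against MEF, 1 to 26 at day 10 against day 2, 2 to 26 in Epcam-negative cells against MEF, 0 to 34 between the fractions, 16 to 33 in fetal TEC against MEF, and 9 to 31 for Epcam-positive cells against fetal TEC; the highest came without 1 of the Epcam-positive libraries. Day 10 against fetal TEC (30) kept its count within 1.5 times under all alternatives. The other scalings and filters on low counts kept all counts within that range. The cause was not tested.

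Replicate numbers did not pair the libraries (correlations of replicate differences -0.215 to 0.116). With the replicate number as a block, 4 members were called at day 10 against MEF, 2 at day 10 against day 2, 4 in Epcam-negative cells against MEF and 13 for Epcam-positive cells against fetal TEC.

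The direction of many members between the Epcam fractions turned on which Epcam-positive library was used. Among those called without replicate 1 against the direction of the value with all libraries, the log2 differences with single libraries left out ranged from -3.28 to 1.23 (Col1a1), -1.14 to 2.12 (Col1a2), -4.24 to 1.29 (Col10a1), -3.02 to 1.27 (Col12a1), -4.44 to 1.67 (Col16a1), -4.47 to 2.64 (Col25a1), -15.41 to 1.13 (Col15a1), -9.04 to 1.87 (Col26a1), -1.39 to 0.72 (Col6a1), -1.74 to 0.84 (Col6a2), -1.71 to 1.44 (Col5a1) and -1.91 to 1.04 (Col5a2). Other members, such as Col3a1 and Col6a3, also changed sign between the 2 libraries. Against fetal TEC, ranges that crossed or reached 0 included -0.56 to 5.13 (Col10a1), -5.43 to 11.11 (Col15a1), -0.46 to 6.66 (Col25a1), -0.07 to 3.41 (Col27a1), 0 to 9.05 (Col28a1), 0 to 8.32 (Col4a4) and -1.48 to 0.93 (Col3a1). Fitted values of genes without counts in a group (Col15a1, Col26a1, Col28a1 and Col4a4 in Epcam-positive replicate 2) are no measure of size. Col4a2 in fetal TEC against MEF changed from -1.81 to 0.03 with the length correction. Members under a few CPM, such as Col4a4, Col9a1 and Col17a1, are limited by depth.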
